A study of Oryctolagus cuniculus with 18 samples.

Results

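IL6, LIF, IL6ST and STAT3 are the 4 genes of the interleukin 6 signalling axis among the 84 genes of interest on the rabbit wound healing PCR array, and they were taken by their symbols in the deposited tables. Quantitative PCR read them in aortic RNA, taken at the lower abdominal level, of 18 male New Zealand White rabbits, which were 11 weeks old when the study began. The control group (n = 9) received chow. The atherosclerotic group (n = 9) had the aorta denuded with a balloon catheter and received feed with 0.30% cholesterol for 8 weeks and then with 0.15% cholesterol for 12 weeks. Every atherosclerotic rabbit had both diet and denudation, so the effects of the diet and of the injury cannot be told apart. The level of a gene is the deposited ratio, 2 to the power of minus deltaCt, where Ct is the cycle at which a well crosses the detection threshold and deltaCt is taken against 5 reference genes of the same rabbit (GAPDH, LDHA, ACTB, ACTA2 and LOC100346936). Each gene had 1 well per rabbit, so the spread between rabbits holds the error of the PCR as well.

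Interleukin 6 (IL6) and leukemia inhibitory factor (LIF) are secreted cytokines of one family. Each binds a receptor of its own, and both signal through the shared subunit gp130, which is encoded by IL6ST. Janus kinases bound to gp130 then phosphorylate the transcription factor STAT3, which enters the nucleus. In arteries IL6 is known as a product of macrophages, endothelium and activated smooth muscle cells, and it drives the acute phase response of the liver. The array reads transcripts only, so neither the phosphorylation of STAT3 nor any protein was measured.

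In the atherosclerotic aorta the transcript of LIF stood higher than in the control aorta by a margin that passed the test narrowly, at 2.74-fold, while IL6 (1.88-fold), IL6ST (1.19-fold) and STAT3 (0.991-fold) did not pass it. Thus 1 of the 4 genes was called, against 60.7% of all 84 genes of interest in the same test, 38.1% higher and the others lower. None of the 4 had values that separated the groups without overlap, which 22.6% of the 84 genes did. The test was limma on the log2 of the ratio, with Benjamini-Hochberg adjustment over the 84 genes and a threshold of 0.05. The samples hold more than cells of one kind, and in whole tissue fewer cells of a type and less RNA per cell cannot be told apart. The summed ratio of the smooth muscle markers on the array (ACTA2, ACTC1 and LOC100009332, 3 of a list of 6) ran from 25.2 to 36.9 among control rabbits. Among atherosclerotic rabbits it ran from 1.31 to 13.6. ACTA2 is also 1 of the 5 reference genes, so its change shifts the scale of every ratio. The sum of the macrophage markers (CTSK, TLR4 and MMP9, 3 of a list of 7) ran from 0.464 to 0.996 in control and from 3.33 to 7.25 in atherosclerotic rabbits. CTSK made up most of it, with mean log2 levels of -0.51 in control and 2.24 in atherosclerotic rabbits. Those of TLR4 were -7.68 and -2.37, and those of MMP9 -12.0 and -7.83. MMP9 had 3 of 9 control wells below the ceiling of 35 cycles at which the authors held late wells. ACTC1 had 8 control and 2 atherosclerotic wells below it. T cell markers (CD40LG, IL2 and IFNG, 3 of a list of 5) summed to between 0.0796 and 0.147 in control and between 0.0647 and 0.274 in atherosclerotic rabbits. Of these, CD40LG was higher by 1.77 on the log2 scale (adjusted p = 0.0063 from limma, and 0.12 without ACTA2 in the reference). IL2 was lower by a log2 difference of -2.05 (adjusted p = 2.1e-05 from limma), while IFNG did not pass. IFNG made up most of the T cell sum, with mean log2 levels of -3.26 in control and -3.36 in atherosclerotic rabbits. Those of IL2 were -7.19 and -9.24, and those of CD40LG -11.23 and -9.45. Fibroblast markers (COL1A2 and DCN, 2 of a list of 5) summed to between 0.556 and 3.26 in control and between 1.15 and 5.42 in atherosclerotic rabbits. COL1A2 was higher by 1.61 on the log2 scale (adjusted p = 6.2e-05 from limma, and 0.056 without ACTA2 in the reference). DCN, at 0.96, did not pass (adjusted p = 0.057 from limma). No endothelial marker of a list of 4 was measured. The part of these cell types in the levels of the 4 genes was not tested.

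Among the ligands, LIF, known for keeping stem cells undifferentiated and for acting on many tissues, had control ratios from 0.000223 to 0.00358 (median 0.00134) and atherosclerotic ratios from 0.000705 to 0.00484 (median 0.00314). The control rabbits lay far apart, with 4 of them (11, 13, 15 and 19) below every atherosclerotic rabbit and the other 5 within the atherosclerotic range, and only 2 atherosclerotic rabbits lay above every control rabbit. On the log2 scale the control level was -10.09 ± 1.70 (SD, n = 9) and the atherosclerotic level -8.63 ± 0.95 (SD, n = 9). Between them, the difference of 1.45 (standard error 0.60, 95% interval 0.20 to 2.71) had an adjusted p of 0.043 from limma, and an exact two-sided permutation p of 0.042, which became 0.067 when adjusted over the 84 genes. The call rested on single rabbits of both groups. It was lost without any 1 of 11 rabbits, namely control rabbits 11, 13, 15 and 19 and atherosclerotic rabbits 2, 4, 6, 8, 10, 12 and 14, and the adjusted p then reached 0.087 from limma at most. The difference itself stayed between 1.20 and 1.70 when each rabbit was left out.

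IL6, the founding member of the family, had control ratios from 0.000142 to 0.00236 (median 0.000972) and atherosclerotic ratios from 0.000522 to 0.00539 (median 0.00180). The lowest control value, in rabbit 13, is an upper limit, since its Ct of 35.32 lay above the ceiling. The other 17 wells of IL6 had a Ct below that ceiling. The groups overlapped, with 2 atherosclerotic rabbits above every control rabbit and 2 control rabbits below every atherosclerotic one. The control level on the log2 scale was -10.19 ± 1.29 (SD, n = 9) and the atherosclerotic level -9.28 ± 1.02 (SD, n = 9). The group difference of 0.91 (standard error 0.51, 95% interval -0.16 to 1.98, adjusted p = 0.13 from limma) did not exceed the spread between rabbits, and its interval runs from 0.893-fold to 3.95-fold.

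The shared receptor subunit IL6ST had control ratios from 0.101 to 0.225 (median 0.165) and atherosclerotic ratios from 0.108 to 0.319 (median 0.192). The groups overlapped, with 2 atherosclerotic rabbits above every control rabbit and 1 control rabbit below every atherosclerotic one. Its log2 levels were -2.69 ± 0.39 (SD, n = 9) and -2.44 ± 0.45 (SD, n = 9). The difference of 0.25 on the log2 scale (standard error 0.22, 95% interval -0.21 to 0.72, adjusted p = 0.33 from limma) corresponds to an interval from 0.864-fold to 1.64-fold. STAT3, the transcription factor downstream, had control ratios from 0.160 to 0.352 (median 0.203) and atherosclerotic ratios from 0.121 to 0.334 (median 0.212), with log2 levels of -2.24 ± 0.36 (SD, n = 9) and -2.25 ± 0.40 (SD, n = 9). The groups covered each other almost completely, with 1 atherosclerotic rabbit, rabbit 20, below every control rabbit and 1 control rabbit, rabbit 3, above every atherosclerotic one. Its difference was -0.01 (standard error 0.21, 95% interval -0.45 to 0.42, adjusted p = 0.96 from limma), which corresponds to an interval from 0.731-fold to 1.34-fold. Rabbits 3 and 20 also stood apart in the reference level itself, at 24.53 and 19.79 cycles against medians of 22.55 for control and 23.01 for atherosclerotic rabbits. Without both of them the difference of STAT3 was 0.18 (adjusted p = 0.33 from limma) and that of IL6ST 0.20 (adjusted p = 0.43 from limma).

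**Figure D1:**
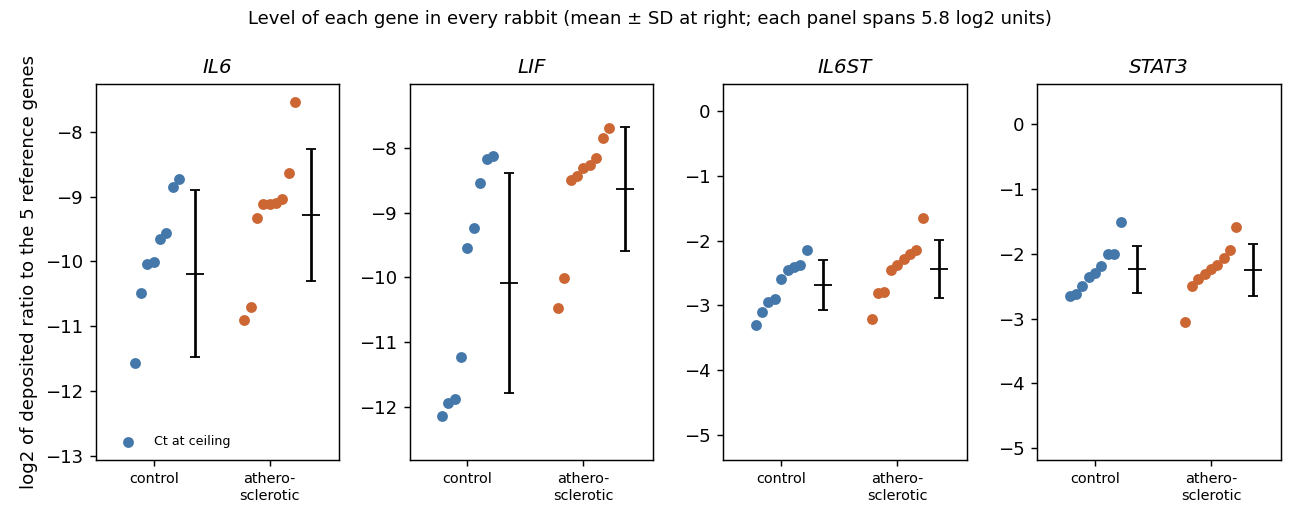
Log2 of the deposited ratio of IL6, LIF, IL6ST and STAT3 in each of 9 control (blue) and 9 atherosclerotic (orange) rabbits, sorted within a group, with the mean and SD at the right of each group. LIF and IL6 spread widely in both groups, 4 control rabbits lie low for LIF, and the groups cover the same band for IL6ST and STAT3.

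The ligands varied between rabbits far more than the receptor and the transcription factor did. Within a group the highest control ratio was 16.1 times the lowest for LIF and at least 16.6 times for IL6, whose lowest value is an upper limit, against 2.23 times for IL6ST and 2.21 times for STAT3. The corresponding figures in the atherosclerotic group were 6.86, 10.3, 2.94 and 2.77. By the SD of the log2 level pooled over the groups, LIF (1.38) ranked 7 and IL6 (1.16) ranked 17 of the 84 genes from the most variable down, while IL6ST (0.42) ranked 74 and STAT3 (0.38) ranked 77. The median over the 84 genes was 0.75. The ligands were also read late, with a mean Ct of 32.1 cycles for LIF and 32.4 for IL6, against 25.3 for IL6ST and 25.0 for STAT3. Across the 63 genes with a Ct below the ceiling in every rabbit, the SD rose with the mean Ct (Pearson's r = 0.54, Spearman's rho = 0.58, a description across genes, which are not independent replicates). How much of the spread of the ligands is PCR error at late cycles was not tested.

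**Figure D2:**
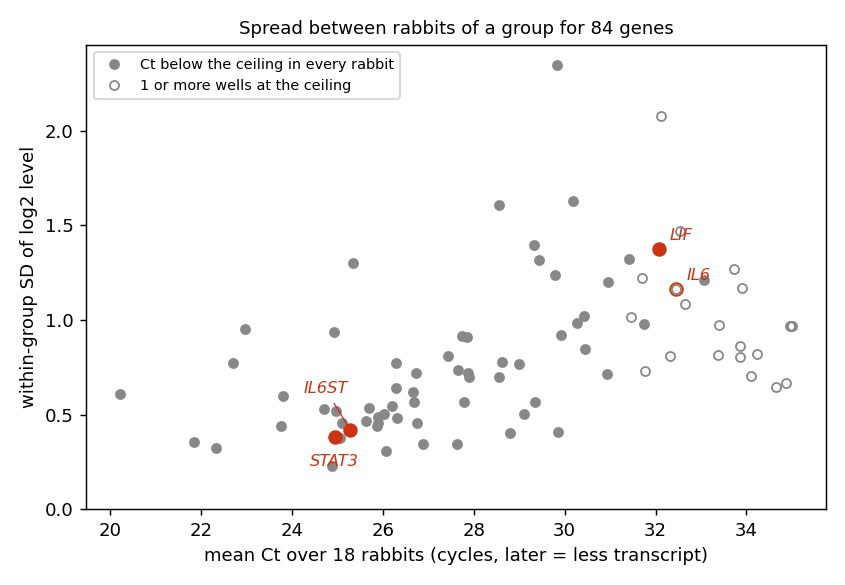
Within-group SD of the log2 level against the mean Ct over 18 rabbits for the 84 genes of interest, with open circles for genes with at least 1 well at the ceiling. LIF and IL6 (red) sit among the late and variable genes and IL6ST and STAT3 among the earlier and least variable ones.

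Neither IL6ST nor STAT3 had a direction that held over the choice of reference genes. Most of the reference genes differed between the groups themselves on the log2 scale, each taken against the mean of the other 4. ACTA2 stood at -3.79, ACTB at -0.62, LOC100346936 at 0.17, GAPDH at 1.24 and LDHA at 3.01. The exact permutation p was 8.2e-05 for ACTA2, 4.1e-05 for GAPDH and for LDHA, 0.011 for ACTB and 0.42 for LOC100346936. When the reference level was taken without ACTA2, STAT3 was lower in the atherosclerotic group by -0.84 (95% interval -1.29 to -0.39, adjusted p = 0.0019 from limma), with no control rabbit as low as 7 of the 9 atherosclerotic ones. With LDHA left out, STAT3 was higher by 0.54 (95% interval 0.09 to 0.98, adjusted p = 0.032 from limma). The same gene thus passed the test in opposite directions. IL6ST stood at -0.57 without ACTA2 (adjusted p = 0.075 from limma) and was higher by 0.80 without LDHA (adjusted p = 0.0021 from limma), where 8 of the 9 atherosclerotic rabbits lay above every control rabbit. The ligands kept a positive sign under all 10 reference levels tried, but not their side of the threshold. LIF ran from 0.63 without ACTA2 (adjusted p = 0.33 from limma) to 2.01 without LDHA (adjusted p = 0.0065 from limma) and passed under 5 of the 10 levels. IL6 ran from 0.08 without ACTA2 to 1.46 without LDHA (adjusted p = 0.019 from limma) and passed under 2 of the 10.

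Those calls have to be read against the genes around them. Without ACTA2, 26.2% of the 84 genes were called higher and 40.5% lower, STAT3 being 1 of the latter. Without LDHA, 56.0% were called higher, all 4 genes of the axis among them, and 11.9% lower. Leaving a gene out of the reference adds the same amount to every gene of a rabbit, so it moves all genes together, from a median log2 difference of 0.37 to -0.45 without ACTA2 and to 0.92 without LDHA. Relative to that median, LIF stood at 1.08, IL6 at 0.54, IL6ST at -0.12 and STAT3 at -0.39 under every reference level, and their places by the size of the difference, from the highest of 84 down, were 26, 35, 48 and 52. These places cannot change with the reference level, and which of the 4 genes differ from each other in their change is a matter for the pair tests.

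**Figure D3:**
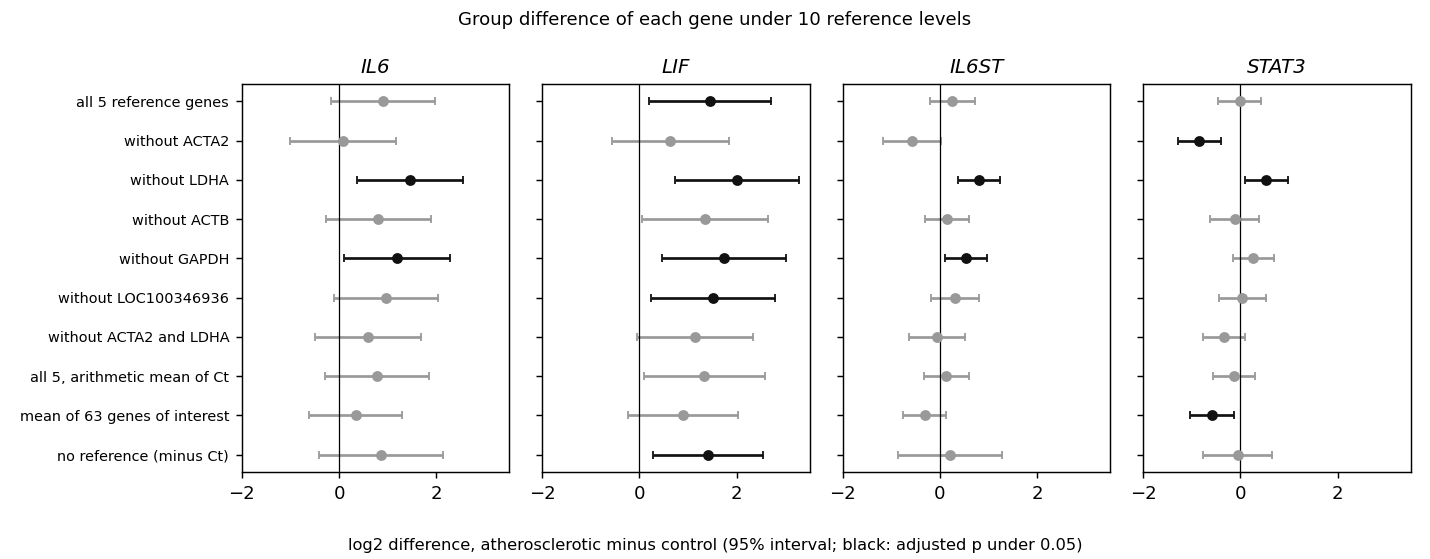
Log2 difference between the groups, atherosclerotic minus control, for IL6, LIF, IL6ST and STAT3 under 10 reference levels, with 95% intervals and black points where the adjusted p from limma was under 0.05. All estimates of IL6 and LIF lie above 0, while those of IL6ST and STAT3 lie on both sides, with STAT3 called lower without ACTA2 and higher without LDHA.

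To compare the ligands with the receptor and the transcription factor without any reference gene, the log2 level of one gene was subtracted from that of another within each rabbit, which cancels the reference level. The efficiency of each assay is unknown, so only the change of such a difference between the groups can be read and not its height. All 6 pairs of the 4 genes were tested in a limma fit over the 3486 pairs of the 84 genes, in which 66.9% of the pairs were called. Of the 6 pairs 1 was called, LIF against STAT3. This difference ran from -9.86 to -5.89 (median -7.36) in control and from -7.98 to -5.54 (median -6.25) in atherosclerotic rabbits. Again control rabbits 11, 13, 15 and 19 lay below every atherosclerotic rabbit, while 8 of the 9 atherosclerotic rabbits lay above the control median. LIF gained on STAT3 by 1.47 (standard error 0.57, 95% interval 0.29 to 2.65, adjusted p = 0.027 over the 3486 pairs from limma), or 2.77-fold. Its exact two-sided permutation p was 0.028, with 0.043 after the same adjustment. Left out singly, control rabbits 11, 13 and 19 each took the adjusted p over 0.05, up to 0.060 from limma, and the other 15 rabbits did not.

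The other 5 pairs did not pass. LIF gained on IL6ST by 1.20 (95% interval -0.11 to 2.52, adjusted p = 0.099 from limma). This pair passed without control rabbit 3 (adjusted p = 0.041 from limma) and without rabbits 3 and 20 together (1.67, adjusted p = 0.023 from limma). IL6 stood at 0.92 against STAT3 (95% interval -0.22 to 2.06, adjusted p = 0.14 from limma) and at 0.66 against IL6ST (95% interval -0.46 to 1.77, adjusted p = 0.29 from limma). The difference of STAT3 against IL6ST moved by -0.27 (95% interval -0.90 to 0.37, adjusted p = 0.45 from limma), and that of IL6 against LIF by -0.55 (95% interval -1.97 to 0.87, adjusted p = 0.49 from limma). The intervals of these 5 pairs all include 0, and their width does not show that the genes changed alike.

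**Figure D4:**
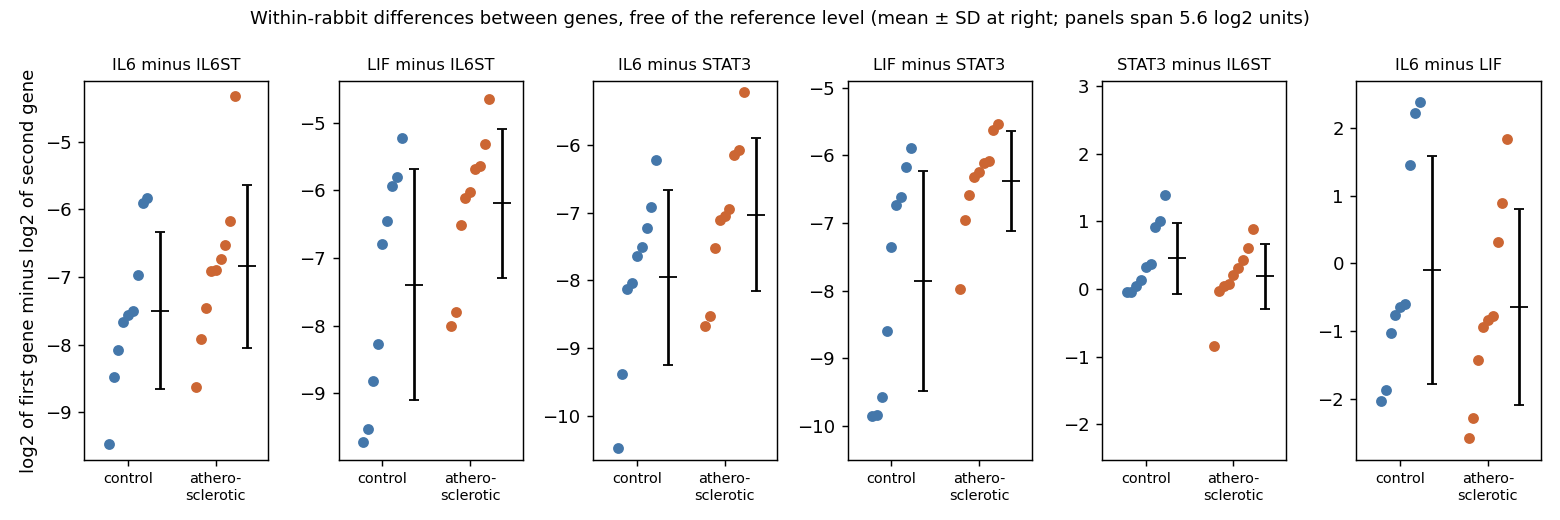
Log2 level of the first gene minus that of the second in each rabbit for the 6 pairs, with control rabbits in blue, atherosclerotic rabbits in orange, and the mean and SD at the right of each group. LIF minus STAT3 is the pair that passed the test, and 4 control rabbits lie at its low end.

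Within a group the levels of IL6, IL6ST and STAT3 were not seen to move together. The values of LIF fell apart in both groups, with a gap of 1.68 on the log2 scale between 4 control rabbits and the other 5 and a gap of 1.51 between 2 atherosclerotic rabbits (18 and 20) and the other 7, so no correlation with LIF was computed for the pairs of the axis. IL6 had a gap of 1.37 between 2 atherosclerotic rabbits (6 and 8) and the other 7, and its correlations are given with and without those rabbits. Of the 6 relations among the other genes, 3 in each group of 9 rabbits, none reached an exact permutation p under 0.05. Pearson's r lay between -0.22 and 0.47 (exact permutation p from 0.21 to 0.95, from 0.63 to 0.99 after adjustment over all 3486 pairs of genes) and Spearman's rho between -0.07 and 0.47 (exact permutation p from 0.21 to 0.98). The median r over all 3486 pairs of genes was 0.11 among control rabbits and 0.14 among atherosclerotic ones. For each of the 6 relations, between 24.6% and 77.0% of all pairs in the same group had a lower r. The 6 relations thus did not stand out from other pairs of genes on the array. The largest r of the 6 was 0.47, between IL6 and IL6ST in the control group. It turned to -0.78 (exact permutation p = 0.042) without rabbits 7 and 13, the 2 farthest from the median of IL6. Among atherosclerotic rabbits the r of IL6 was -0.22 with IL6ST and -0.09 with STAT3 (exact permutation p = 0.57 and 0.82), and without rabbits 6 and 8 it was -0.63 and -0.08 (exact permutation p = 0.17 and 0.83). In the atherosclerotic group IL6ST and STAT3 had an r of 0.36 (exact permutation p = 0.33), which was 0.76 for a reference without ACTA2 (exact permutation p = 0.018) and -0.08 without rabbits 10 and 12 (exact permutation p = 0.88).

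The genes most like each member of the axis from rabbit to rabbit were also listed. Likeness was measured by Pearson's r over the 18 rabbits after each group's mean was subtracted, among genes with a Ct below the ceiling in every rabbit. All values of a rabbit share its reference level, and the highest of more than 60 values of r were picked, so these are descriptions. LIF was most like PLAUR, the cell surface receptor of urokinase, with an r of 0.88, which was 0.91 among control rabbits and 0.78 among atherosclerotic ones. With ACTA2 or LDHA left out of the reference, or with the mean of 63 genes of interest as the reference, that r was 0.86, 0.88 and 0.86. The gap among the LIF values enters this r. HBEGF, a ligand of the EGF receptor, followed with 0.61, which was 0.77 among control and 0.12 among atherosclerotic rabbits. ITGA5, the alpha chain of the fibronectin receptor, had 0.53, from 0.63 and 0.28. With the mean of 63 genes as the reference, the r of LIF was 0.52 with HBEGF and 0.41 with ITGA5. The group difference of PLAUR, 2.32 on the log2 scale, had an adjusted p of 0.053 from limma.

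IL6 was most like TLR4, the receptor for bacterial lipopolysaccharide, with an r of 0.72, which was 0.90 among control rabbits and 0.22 among atherosclerotic rabbits. The neutrophil chemokine CXCL8 came next with 0.65 (0.74 among control and 0.50 among atherosclerotic rabbits), then the integrin chain ITGA4 with 0.57 (0.83 and 0.18). With the mean of 63 genes as the reference, the r of IL6 with TLR4, CXCL8 and ITGA4 was 0.64, 0.54 and 0.45. IL6ST was most like ITGA1 (0.68), EGFR (0.64) and FGF2 (0.63), a collagen-binding integrin chain, the EGF receptor and a fibroblast growth factor. Their r lay between 0.39 and 0.40 among control rabbits and between 0.77 and 0.83 among atherosclerotic ones. Over all rabbits it moved with the reference, to between 0.81 and 0.86 without ACTA2 and to between 0.54 and 0.59 without LDHA. All 3 of these genes were lower in the atherosclerotic group, with log2 differences of -1.58, -1.76 and -1.98 (adjusted p of at most 2.6e-05 from limma), where IL6ST was not. STAT3 was most like PTK2, the focal adhesion kinase, with an r of 0.73 (0.55 among control and 0.86 among atherosclerotic rabbits). ITGA5 followed with 0.66 (0.79 and 0.53). Without ACTA2 in the reference these r were 0.75 and 0.74, and with the mean of 63 genes as the reference 0.69 and 0.50. No difference in r between the groups was tested for any of these genes.

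The genes that surround this axis were described by lists, beside the median log2 difference of 0.37 over the whole array. There 60.7% of genes were called, 38.1% of all genes as higher. None of the receptor genes IL6R, LIFR, OSMR and IL11RA, the kinases JAK1, JAK2 and TYK2 and the inhibitors SOCS1, SOCS3 and PIAS3 was measured, and another list of genes downstream of gp130 is not reported here. Of the 4 inducers of IL6 and LIF, 2 were higher. TLR4 rose by 5.30 (standard error 0.41, adjusted p = 1.5e-09 from limma). TNF passed at a fitted difference of 2.34 (95% interval 1.57 to 3.10, adjusted p = 1.5e-05 from limma), which was 1.51 without ACTA2 in the reference. All 9 of its control wells were held at the ceiling and all 9 atherosclerotic wells were below it, so the control level of TNF is known only as an upper limit. IL1B, at 1.24 (standard error 0.90, adjusted p = 0.23 from limma), and IL1A, with 2 of 18 wells below the ceiling, did not pass. The median over this list was 1.79.

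Of 19 listed genes that STAT3 is known to induce, 4 were on the array. Of these 4, 3 were higher and none lower, beside 38.1% of the 84 genes called higher. Their median was 1.82. The anti-inflammatory cytokine IL10, below the ceiling in 7 of 9 control wells, rose by 4.16 (standard error 0.34), the metalloproteinase inhibitor TIMP1 by 2.40 (standard error 0.23) and the angiogenic factor VEGFA by 1.24 (standard error 0.27), each with an adjusted p of at most 0.00054 from limma. Without ACTA2 in the reference their differences were 3.33, 1.57 and 0.42, and that of VEGFA then missed the threshold (adjusted p = 0.17 from limma). The fibrinogen chain FGA, which also enters the median of the 4, was below the ceiling in 2 of 18 wells and did not pass. These genes have other inducers as well, and no reading of STAT3 activity was made.

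Of 6 other cytokines on the array that act through Janus kinases and STAT proteins, from a list of 10, 1 was higher (IL10) and 2 were lower. Their median was 0.04. The T cell growth factor IL2 fell by 2.05 (standard error 0.33, adjusted p = 2.1e-05 from limma). CSF3, a granulocyte factor, fell by 1.05 (standard error 0.33, adjusted p = 0.0084 from limma), with 3 of 9 atherosclerotic wells of CSF3 below the ceiling. Without LDHA in the reference CSF3 stood at -0.50 and missed the threshold (adjusted p = 0.20 from limma). IL4, IFNG and CSF2 did not pass, with differences between -0.10 and 0.42. IL4 was below the ceiling in 5 control and 4 atherosclerotic wells and CSF2 in 6 and 7, while IFNG was below it in every well. Without ACTA2 IFNG stood at -0.93 and passed (adjusted p = 0.017 from limma). Of the genes in these lists with wells at the ceiling that did not pass, FGA passed as lower without ACTA2 (-0.87, adjusted p = 0.046 from limma). Without LDHA, IL1A (0.87, adjusted p = 0.024 from limma), IL4 (0.74, adjusted p = 0.039 from limma) and CSF2 (0.97, adjusted p = 0.031 from limma) passed as higher. The shift that a reference level gives to every gene also moves wells held at the ceiling, so these 4 calls are no reading of those genes.

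**Figure D5:**
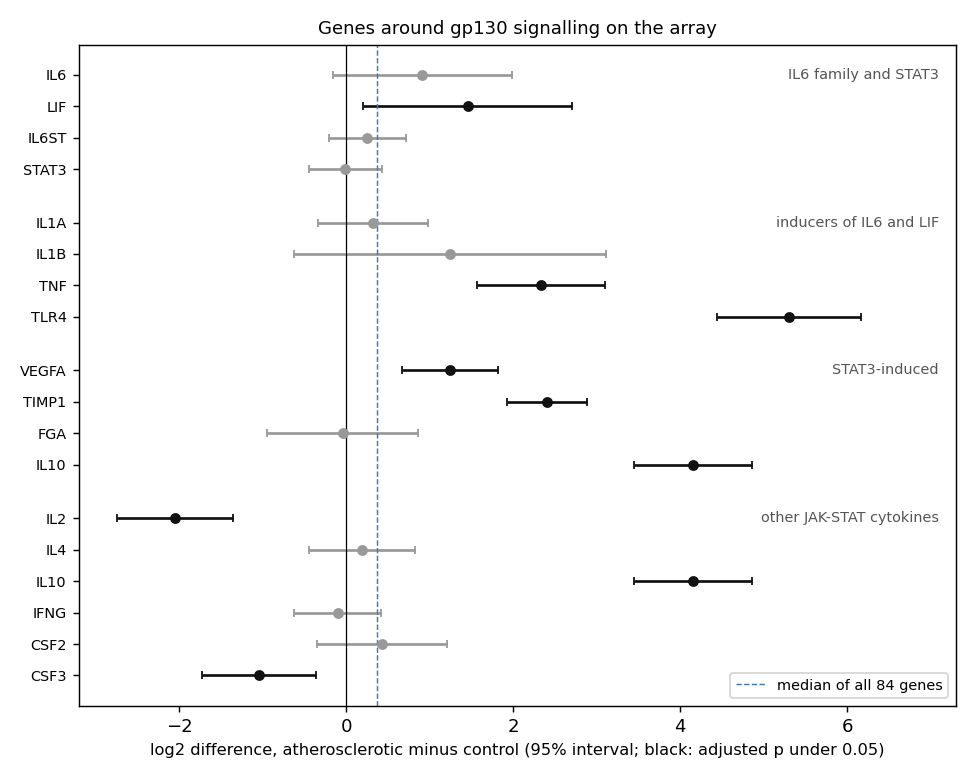
Log2 difference between the groups, atherosclerotic minus control, with 95% intervals for the 4 genes of the axis and the measured genes of 3 lists around it (inducers, STAT3-induced genes and other cytokines), with black points where the adjusted p from limma was under 0.05 and a dashed line at the median of all 84 genes, 0.37. The inducers TLR4 and TNF and the STAT3-induced genes IL10 and TIMP1 lie far to the right of IL6ST and STAT3, and all control wells of TNF were at the ceiling. The other measured members of those lists, IL1A (0.32), IL1B (1.24), VEGFA (1.24) and FGA (-0.04), lie nearer to IL6ST and STAT3.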

How the data were processed

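RNA from the aorta was extracted with TRIzol and reverse-transcribed, and the plates were read on a Mx3000P instrument, per the labels. The authors deposited the Ct of each well and, from GeneGlobe, the ratio of each gene to the reference genes of the same rabbit (2 to the power of minus deltaCt). Rebuilding this ratio from the deposited Ct showed a ceiling of 35 cycles and a geometric mean of the 5 reference Ct values. At this ceiling stood 150 of 1512 wells of the genes of interest. A deposited table of fold changes between the groups was not used. Genome build and primer sequences are not given in the sources used here.

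Groups came from the sample titles, which name no batch and share no rabbit number between groups. Log2 ratios of the 84 genes, and the within-rabbit differences of their 3486 pairs, were fitted with limma 3.58.1 (R 4.3.3, lmFit and eBayes, no covariate) and adjusted by the Benjamini-Hochberg method. Exact two-sided permutation tests ran over all assignments of 9 against 9 rabbits, where the smallest p is 4.1e-05, or all orders of 9 rabbits for correlations. The analysis steps were tested on simulated data (Python 3.11.15, scipy 1.17.1).

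The 4 genes and the lists were chosen with earlier results of these data known. Genes were named by rule, the 4 genes, up to 3 per list with the largest difference past the threshold, the 3 genes most like each of the 4, and the reference genes. One gene most like STAT3 is not reported here. List members that missed the threshold were named after their values were seen. Of the 4 genes, 3 were matched by accession to the RefSeq gene table of mOryCun1.1, and STAT3 by symbol only. Alternatives covered the reference level, the Ct ceiling, a detection filter, the test, array weights and leaving out each rabbit. Leaving out rabbits 3 and 20 together was chosen after seeing the data.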

Additional observations from a re-analysis of the deposited data

Results flagged for a closer look

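In 20 sets of 9 values (the log2 levels of the 4 genes and their 6 within-rabbit differences, in each group), no rabbit stood apart from the other 8 by more than Dixon's critical value at the 95% level allows, where chance gives about 1 such set.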

How the results depend on the processing

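With ACTA2 left out, LIF stood at 0.63, IL6ST at -0.57 and STAT3 at -0.84. With LDHA left out, IL6 stood at 1.46, IL6ST at 0.80 and STAT3 at 0.54. With GAPDH left out these were 1.19 (adjusted p = 0.049), 0.54 and 0.27, and STAT3 was 0.043 with LOC100346936 left out. LIF no longer passed with ACTB left out (1.35), with ACTA2 and LDHA both left out (1.14), with the arithmetic mean of the reference Ct (1.33), with the mean of 63 genes as reference (0.89), with a ceiling at 33 cycles (0.97), in the exact permutation test (1.45, adjusted p = 0.067) and in that test on the ratio itself (a difference of 0.00139, adjusted p = 0.083). IL6ST was -0.062 with ACTA2 and LDHA both left out and -0.31 with the mean of 63 genes, where STAT3 was -0.58. STAT3 was 0.029 with array weights and 0.18 without rabbits 3 and 20, and the difference of LIF against IL6ST was 1.67 without them. The cause of these changes was not tested beyond the shift that a reference level gives to every gene.

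When each rabbit was left out, the difference of IL6 ran from 0.58 to 1.11, that of LIF from 1.20 to 1.70, that of IL6ST from 0.15 to 0.35 and that of STAT3 from -0.097 to 0.087, the last on both sides of 0. LIF against STAT3 ran from 1.22 to 1.71 and LIF against IL6ST from 0.91 to 1.47. The ranges were 0.34 to 0.88 for IL6 against IL6ST, 0.61 to 1.14 for IL6 against STAT3, -0.35 to -0.14 for STAT3 against IL6ST and -0.86 to -0.24 for IL6 against LIF. The number of genes called, 51, lay between 48 and 54 without each rabbit and was 58 without rabbits 3 and 20, 49 in the exact test and 59 with array weights. The lowest counts were 41 with minus Ct and no reference and 44 with a ceiling at 33 cycles, and all other settings gave 50 to 57.

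Of the 6 correlations, 1 reached an exact permutation p under 0.05 without ACTA2, 1 without ACTA2 and LDHA and 1 with minus Ct. In each case it was IL6ST and STAT3 in the atherosclerotic group (0.76, 0.71 and 0.99). Their r turned to -0.19 with the mean of 63 genes and to -0.084 without 2 rabbits. Minus Ct is not normalized, so its correlations also hold the RNA input of each rabbit. Atherosclerotic rabbit 20 had a reference level of 19.79 cycles against a group median of 23.01. In control rabbits, IL6 and IL6ST turned to -0.060 with the mean of 63 genes and to -0.78 without 2 rabbits, IL6 and STAT3 to -0.35 with the mean of 63 genes, -0.023 with minus Ct and -0.05 by rank, and IL6ST and STAT3 to -0.063 without LDHA and -0.0016 without GAPDH. In atherosclerotic rabbits, IL6 and IL6ST turned to 0.13 without ACTA2, 0.095 without ACTA2 and LDHA and 0.63 with minus Ct, and IL6 and STAT3 to 0.028 without ACTA2, 0.0029 without ACTB, 0.0077 without LOC100346936 and 0.64 with minus Ct. The planned correlations with LIF were not run, because its values fall into separate clusters, a choice made after the values were seen. IL6 and STAT3 were kept although their largest gaps were of like size, 40.8% of the range for IL6 among atherosclerotic rabbits (2 against 7) and 43.5% for STAT3 among control rabbits (1 against 8), beside 42.0% for LIF among control rabbits (4 against 5), and the likeness of LIF to other genes is a description over the same split values. No paired analysis was possible because the groups share no rabbit number. Each gene had a single well in a rabbit, so PCR error and differences between rabbits could not be separated.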
